A study of Mus musculus with 9 samples.

Results

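The complement genes C1qa, C1qb, C1qc, C1s1, C3, C4b, C3ar1, C5ar1 and Cfp were followed across 9 clones of MPC, primary mouse cells grown out of tumors. These 9 genes were taken by symbol from the 18049 genes of the table, and each matched a single row. The clones came from pancreatic tumors of WTg mice, whose genotype is EL1-Luc/EL1-Tag x CAG-Mettl3: an elastase promoter, active in pancreatic acinar cells, drives luciferase and the SV40 T antigen, and the broadly active CAG promoter drives Mettl3, the enzyme that writes N6-methyladenosine on RNA. All 9 clones shared these transgenes and formed a single group without a control group. Each library is a colony picked with a cloning cylinder after culture. The methods say when tumors became apparent in these mice but give no age at culture, and no animal is tied to a clone. The labels gave the treatment as none, although a protocol field named the PLK1 inhibitor NMS-P937. The cells were labelled as fibroblasts, and the data went against that label as the only cell type, since macrophage markers were high in every clone.

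Complement is a set of proteins that tags particles and dying cells for uptake and calls in inflammatory cells. In the classical pathway, C1q, built from A, B and C chains, binds its target and activates the proteases C1r and C1s, which cleave C4 and C2. The resulting enzyme cleaves C3, the component on which all routes of activation meet, and small fragments of C3 and C5 signal through the receptors C3aR and C5aR1. Most complement proteins in plasma are made by the liver, whereas C1q is made mainly by macrophages, and fibroblasts can also make early components.

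Expression is given as normalized counts, meaning reads counted on a gene after the authors' scaling of each library. A clone is named as in its library name. The names carried 3 prefixes, with 4 libraries under Whe10, 4 under Whe3 and 1 under EL061301. No label said what the prefixes stand for. Depth, as reads assigned to genes, ran from 12198036 to 20453884 (median 18082577), and EL061301-11A was the least deeply sequenced. A count of 3 reads, taken as the smallest level that the depth can show, equalled 3.79 to 6.56 normalized counts. No transcript lengths were at hand, so levels are compared between clones and not between genes.

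All 16 macrophage markers lay above that smallest level in every clone and together took 2.02 to 3.27% of each library, with the growth factor receptor gene Csf1r at 36202 ± 12444 normalized counts (SD, n = 9) and the F4/80 gene Adgre1 at 20389 ± 5204. Of 15 fibroblast markers, 14 lay above it in every clone, and the list took 1.52 to 4.21%. The epithelial marker Epcam had no read in any clone. Of the neutrophil markers 1 of 6 was listed in the table, of the T cell markers 1 of 4, of the hepatocyte markers 1 of 4, of the dendritic cell markers 2 of 4 and of the B cell markers 0 of 4. Epithelial markers took at most 0.000764% of a library and endothelial markers at most 0.00168%. Acinar genes stood apart in Whe3-5A, where they took 0.00955% of the library. In bulk RNA, fewer cells of a type and less RNA per cell cannot be told apart.

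The genes of the C1q chains lay side by side on chromosome 4 of GRCm38, C1qb at 136880126-136886200, C1qc at 136889801-136892936 and C1qa at 136895916-136898844, within 18.7 kb and with no other annotated gene between them. The upstream sequences of C1qb, C1qc and C3ar1 are shown because these genes, together with C1qa, rose with the macrophage markers across clones. They are the 250 bases before a transcript start, from RefSeq on GRCm38.p6, all read on the minus strand: chr4:136886201-136886450 for C1qb, chr4:136892915-136893164 for C1qc and chr6:122856158-122856407 for C3ar1. The C1qc start used lies inside the outer end of the gene given above, so its window overlaps that end. Capitals mark GAGGAA or its reverse complement in C1qb and C1qc, and TATAAA in C3ar1.
C1qb: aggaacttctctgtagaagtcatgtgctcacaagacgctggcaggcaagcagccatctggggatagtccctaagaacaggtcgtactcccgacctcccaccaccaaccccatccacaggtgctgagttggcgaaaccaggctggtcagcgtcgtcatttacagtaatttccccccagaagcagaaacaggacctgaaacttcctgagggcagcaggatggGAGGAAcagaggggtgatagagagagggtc
C1qc: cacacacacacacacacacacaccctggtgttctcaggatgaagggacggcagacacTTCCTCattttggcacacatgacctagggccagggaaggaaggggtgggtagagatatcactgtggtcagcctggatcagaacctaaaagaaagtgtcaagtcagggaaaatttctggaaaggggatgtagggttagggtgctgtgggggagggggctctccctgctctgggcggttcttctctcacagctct
C3ar1: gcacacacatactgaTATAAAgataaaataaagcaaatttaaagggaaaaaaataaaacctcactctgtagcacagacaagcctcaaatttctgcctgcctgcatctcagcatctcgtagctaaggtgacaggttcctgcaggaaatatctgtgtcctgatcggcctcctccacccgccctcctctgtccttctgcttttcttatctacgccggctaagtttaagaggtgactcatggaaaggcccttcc

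Of the 9 members, 7 had an entry in the promoter table, while C1qa and C4b had none. GAGGAA, the core of sites bound by the macrophage factor PU.1, was found on the plus strand of the C1qb window 30 to 25 bases before the start and on the reverse strand of the C1qc window 193 to 188 bases before it. None of the other members with an entry held it, and 23.25% of all 32851 windows of this length did. TTGCNNAA, a pattern of sites bound by C/EBP factors, was found 45 to 38 bases before the start of C3. On the reverse strand it was found 242 to 235 bases before a start of C1s1, against 9.56% of all windows. TATAAA, the letters of a TATA box, was found only for C3ar1, 235 to 230 bases before the start, against 12.4% of all windows. Whether this match acts as a TATA box was not tested. Each motif was searched on both strands, the motifs were chosen after the sequences had been seen, and a match is a match of letters only.

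C1qa, C1qb and C1qc, which encode the A, B and C chains of C1q, were high in every clone and differed less than 2 times between clones. C1qa ran from 33753 normalized counts in Whe3-11A through a median of 40768 to 53435 in Whe10-10A, with a mean of 43407 ± 6836 (SD, n = 9). C1qb ran from 36264 in Whe3-12A through 50412 to 65405 in Whe10-7A, with a mean of 50519 ± 10015. C1qc ran from 35490 in Whe3-12A through 47574 to 62027 in Whe10-7A, with a mean of 47771 ± 9670. The highest clone was thus 1.58, 1.80 and 1.75 times the lowest for C1qa, C1qb and C1qc. The CV over clones was 15.7% for C1qa, 19.8% for C1qb and 20.2% for C1qc, and with 1 library per clone, differences between clones and between library preparations cannot be told apart. Ranked by SD of log2 values, C1qa stood at the 54.6th percentile of the genes tested, C1qb at the 65.8th and C1qc at the 66.6th. Among genes with a mean within 2 times of their own, the percentiles were 34.3, 49.3 and 50.6 in that order. Their variation was thus not high for genes of their level.

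The 3 chain genes together took 0.550% ± 0.102 of the reads on genes (SD, n = 9), from 0.422% in Whe3-12A to 0.695% in Whe10-7A. Their proportions were steadier than their levels. C1qb was 1.16 ± 0.105 times C1qa, between 0.979 in Whe3-12A and 1.33 in Whe10-7A. C1qc was 1.10 ± 0.121 times C1qa, between 0.902 in EL061301-11A and 1.27 in Whe10-7A. The ratio of C1qb to C1qc was the steadiest at 1.06 ± 0.0679, a CV of 6.40%, and in the 4 Whe10 clones it stayed between 1.05 and 1.06. EL061301-11A stood highest on this ratio, at 1.21. These ratios are of read counts, not per length, so their distance from 1 says nothing about the numbers of molecules.

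**Figure D1:**
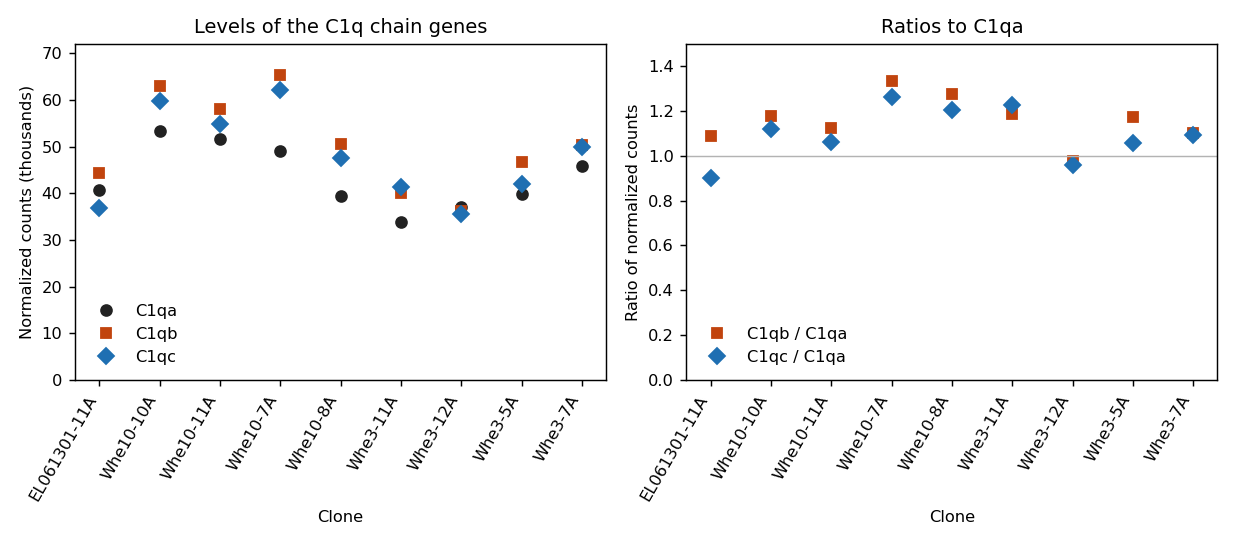
Levels of C1qa, C1qb and C1qc in normalized counts (left, axis divided by 1000) and the ratios of C1qb and C1qc to C1qa (right) in each of the 9 clones, with 1 point per library and no error bars. The chains rise and fall together over the clones, and both ratios stay between 0.902 and 1.33.

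Across the 9 clones the chain genes moved together on the log2 scale. Pearson's r was 0.952 for C1qb with C1qc (adjusted p = 0.0005952, exact two-sided permutation test, Benjamini-Hochberg over 3 pairs), and Spearman's rho was 0.967 (adjusted p = 0.000496, exact permutation). For C1qa with C1qb, r was 0.897 (adjusted p = 0.002269, exact permutation) and rho 0.817 (adjusted p = 0.01383, exact permutation). For C1qa with C1qc, r was 0.835 (adjusted p = 0.007744, exact permutation) and rho 0.800 (adjusted p = 0.01383, exact permutation). Raw p-values for r were 0.0001984, 0.001513 and 0.007744 in the same order by the exact permutation test. Centred within the Whe10 and Whe3 prefixes (n = 8), r was 0.952, 0.805 and 0.760 in that order, with adjusted p of 0.005208, 0.04688 and 0.04688 (exact permutation). Without the 2 clones farthest from the median, r was 0.911, 0.859 and 0.753, with adjusted p of 0.01548, 0.02589 and 0.05278 (exact permutation), so the pair C1qa with C1qc rested in part on Whe10-10A and Whe10-11A, the clones left out. The libraries share their scaling factor between genes, which is common to all points. The r of the chain pairs was not ranked against r with other genes, so it does not show a link specific to the chains.

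C1s1, which encodes the protease C1s of the C1 complex, lies on chromosome 6 at 124530344-124542392. It ran from 601 normalized counts in Whe10-11A through a median of 1764 to 4118 in EL061301-11A, with a mean of 1837 ± 1038 (SD, n = 9). EL061301-11A alone was 2.65 times the mean of the other clones, 1552 ± 628 (n = 8), while the Whe10 clones (601 to 1947) and the Whe3 clones (1130 to 2548) overlapped. Its partner protease gene C1ra also had its highest value, 1116, in EL061301-11A, with a mean of 585 ± 297. C1s1 was 3.13 ± 0.671 times C1ra over the clones. The near copies C1s2 and C1rb reached at most 5.91 and 4.34 normalized counts, and reads shared between such copies could have been split in counting.

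C3, the central component, lies on chromosome 17 at 57203967-57228136. It ran from 614 normalized counts in Whe3-5A through a median of 1311 to 3530 in Whe3-7A, with a mean of 1602 ± 951 (SD, n = 9). Both the lowest and the highest clone bore the Whe3 prefix, and the Whe10 clones lay between 908 and 1418. C4b, one of the genes of C4, lies on chromosome 17 at 34728139-34743902 and was the most variable of the 9 genes. The Whe10 clones had 27.5, 105, 135 and 322 normalized counts, the Whe3 clones 50.4, 108, 392 and 1712, and EL061301-11A 162. A single clone, Whe3-7A, stood apart at 10.5 times the mean of the others. The mean over all clones was 335 ± 530 (SD, n = 9), and without Whe3-7A it was 163 ± 129 (n = 8). The C4b values rested on 19 reads in Whe10-7A, the lowest clone, and 1159 reads in Whe3-7A. The close paralog C4a stayed at 18.8 ± 4.75, so the ratio of C4b to C4a went from 1.27 in Whe10-7A to 72.4 in Whe3-7A, and reads of the pair can be assigned to either copy. By SD of log2 values, C1s1 stood at the 93.5th percentile of the genes tested, C3 also at the 93.5th and C4b at the 98.5th.

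The receptor genes varied less than C1s1, C3 and C4b did, but more than most genes of their level. By SD of log2 values among genes with a mean within 2 times of their own, C3ar1 stood at the 76.3th percentile, C5ar1 at the 84.7th and Cfp at the 81.9th. C3ar1, the receptor of the C3a fragment, lies on chromosome 6 at 122847140-122856157. The Whe10 clones had 14711 to 16784 normalized counts, the Whe3 clones 8555 to 14087 and EL061301-11A 9821, with a mean of 13017 ± 3060 (SD, n = 9). C5ar1, the main receptor of C5a, lies on chromosome 7 at 16246743-16259540. Its Whe10 clones had 10105 to 12390 and its Whe3 clones 7177 to 9193, while EL061301-11A was lowest at 4972, and the mean was 8992 ± 2353. For both receptors every Whe10 clone lay above every other clone. C3ar1 was 1.48 ± 0.270 times C5ar1 in reads, from 1.14 in Whe3-11A to 1.98 in EL061301-11A. Cfp, which encodes properdin, the stabilizer of the C3 convertase of the alternative pathway, lies on chromosome X at 20925454-20931555. It ran from 4397 in Whe3-5A through a median of 6757 to 9201 in Whe3-7A, with a mean of 6675 ± 1564, and the prefixes overlapped along most of that range.

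**Figure D2:**
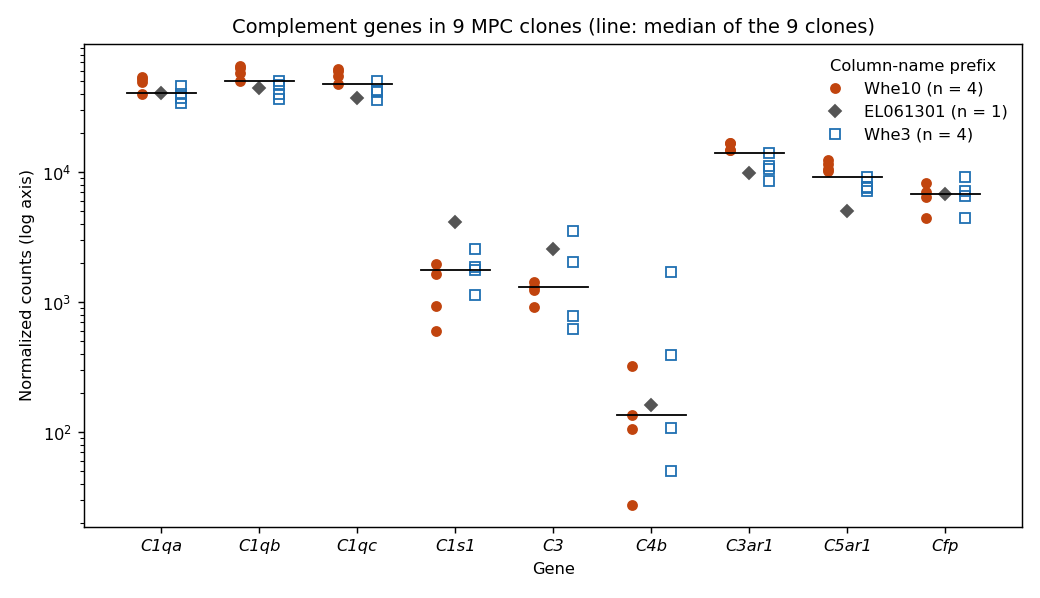
Normalized counts (log axis) of the 9 complement genes, with 1 point per clone, filled circles for Whe10 (n = 4), diamonds for EL061301 (n = 1), open squares for Whe3 (n = 4) and a line at the median of the 9 clones. The C1q genes, C3ar1, C5ar1 and Cfp lie in narrower bands, whereas C4b runs from 27.5 to 1712, and levels of different genes are not per length.

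The rest of the complement system was described from a list of 47 further genes, of which 33 were in the table and 20 had a mean of at least 50 normalized counts. The other C1 proteases, besides C1ra, were represented by C1rl at 284 ± 77.3 (SD, n = 9). C2, which forms the classical convertase with C4b, had 153 ± 133, and factor B (Cfb), its counterpart in the alternative pathway, had 10.0 ± 6.26. Of the lectin pathway, Colec12, a scavenger collectin, had 7776 ± 1986, Masp1 873 ± 764 and the ficolin gene Fcna 521 ± 209. Of the terminal components, which build the membrane attack complex, only Hc (the gene of C5, 4.95 ± 5.89) and C8g (14.6 ± 5.62) were in the table. Hc was above 3 reads in only 3 of 9 clones and had no read in 3. Of the soluble regulators, the C1 inhibitor gene Serping1 had 1883 ± 1164. Of the membrane regulators, Cr1l, the gene of Crry, had 1593 ± 76.4, a CV of 4.80% and the smallest of the members and listed genes with a mean of at least 1000. Of the other receptors and binding proteins, Lrp1 had 105592 ± 13987, Calr 27300 ± 2138, Itgam 20886 ± 2929, Itgb2 14195 ± 1901, Cd93 9136 ± 1563 and C1qbp 1379 ± 205. Itgam and Itgb2 form complement receptor 3, which takes up particles coated with a C3 fragment. Cr2, the complement receptor of B cells, had no read in any clone, which at this depth allows up to 3 reads per library.

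**Figure D3:**
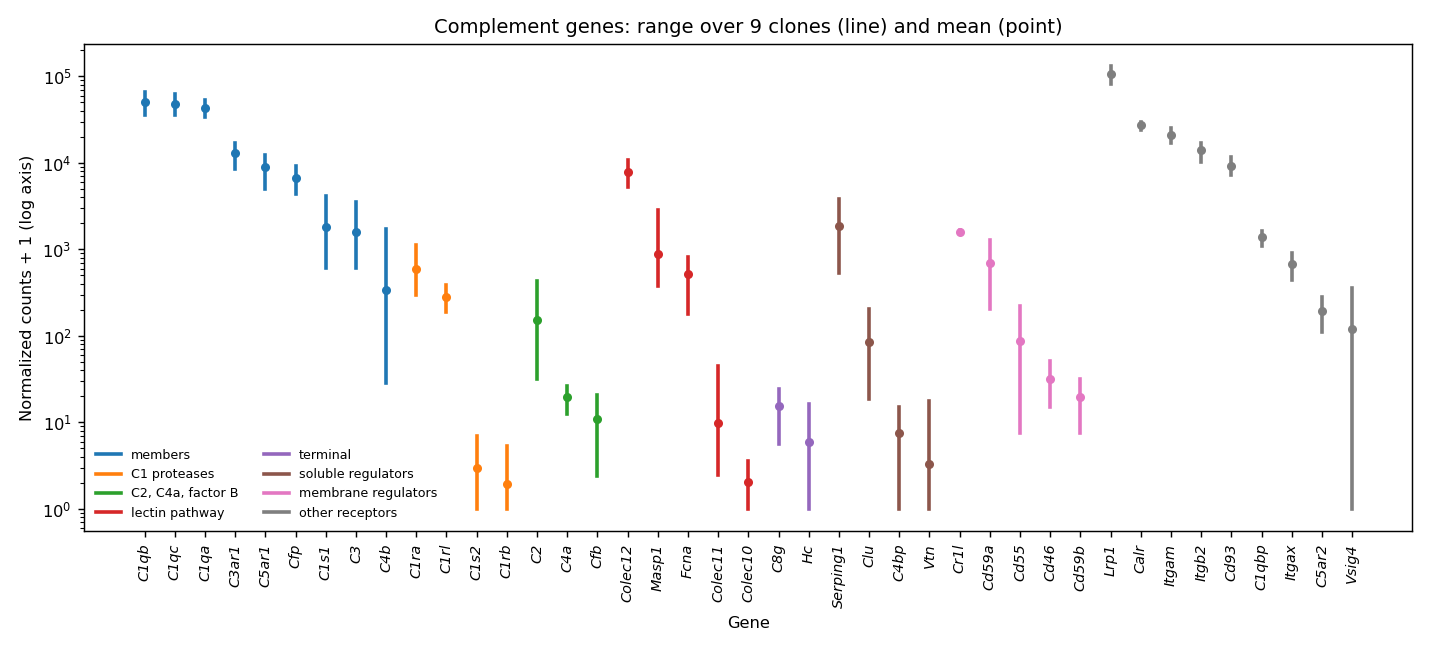
Mean (point) and range over the 9 clones (line) of the 9 members and of the further complement genes with a read, grouped by role, as normalized counts + 1 on a log axis. The C1q genes and several receptors and regulators exceed 1000 on average while Hc and C8g stay at or under 23.2, and levels of different genes are not per length.

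The prefixes of the library names were the only split that the headers gave, and were compared with limma on log2(normalized counts + 1) for the 4 Whe3 against the 4 Whe10 clones. All 9 members had the mean of 50 normalized counts required for the fits. None of them passed an adjusted p of 0.05 (4 had an unadjusted p under 0.05, limma), in a comparison in which 36 of 12332 genes (0.292%) did and 2671 had an unadjusted p under 0.05. C5ar1 was closest, with a log2 difference (Whe3 minus Whe10) of −0.49 (SE 0.0998, adjusted p = 0.0995, limma), followed by C3ar1 at −0.53 (SE 0.144, adjusted p = 0.141). C1qb differed by −0.46 (SE 0.139, adjusted p = 0.153), C1qc by −0.41 (SE 0.137, adjusted p = 0.166) and C1qa by −0.31 (SE 0.137, adjusted p = 0.235). The differences of C1s1 (0.60, SE 0.389), C3 (0.18, SE 0.516), C4b (1.21, SE 1.13) and Cfp (0.05, SE 0.251) had adjusted p between 0.374 and 0.926. The median was −0.308 over the members and −0.015 over all genes tested. Without Whe3-5A, the library with the highest share of acinar reads, C3ar1 passed at −0.65 (SE 0.112, adjusted p = 0.0397, limma). The number of genes called then rose to 265. In C1qb, C3ar1 and C5ar1 every Whe3 clone lay below every Whe10 clone, as in 6.2% of all genes tested, a description without a test. For C1qb the margin was slight, with the highest Whe3 clone at 50412 normalized counts and the lowest Whe10 clone at 50493. Of the 20 other complement genes tested, 0 were called by limma, and 5 had an unadjusted p under 0.05. The prefixes also differed in sex-linked genes, Xist by −13.08 and Ddx3y by 11.33 on the log2 scale (both called by limma), so the prefix and the sex of the source animals cannot be told apart.

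Since macrophages are the main known source of C1q, the levels were also set against the macrophage markers. The macrophage score is the mean z-score of the 16 markers over the clones, from −1.32 in Whe3-12A to 0.98 in Whe10-7A. C1qa, C1qb, C1qc and C3ar1 rose with it, which is 4 of 9 members, in a limma fit in which 12.8% of 12285 genes were called higher. The slope on the log2 scale per unit of the score was 0.44 for C3ar1 (SE 0.0631, adjusted p = 0.0046, limma), 0.37 for C1qb (SE 0.0566, adjusted p = 0.00567), 0.36 for C1qc (SE 0.0673, adjusted p = 0.00939) and 0.25 for C1qa (SE 0.0738, adjusted p = 0.0425). C5ar1 had a slope of 0.37 (SE 0.136, adjusted p = 0.0808) and Cfp of 0.03 (SE 0.159, adjusted p = 0.904). The slopes of C1s1 (−0.32), C3 (−0.17) and C4b (−0.49) were smaller than their SE (0.342, 0.356 and 0.743). The median slope was 0.246 over the members and 0.011 over all genes tested. Of the 20 other complement genes, 4 were called higher, namely Clu, C5ar2, Itgb2 and Cd93, and 0 lower. Every Whe10 clone had a higher score (0.28 or more) than every Whe3 clone (0.19 or less). The share of the library taken by the same markers did not separate the prefixes. It ran from 2.68 to 3.04% in Whe10 and from 2.02 to 3.27% in Whe3, with the highest share in Whe3-7A. With the prefix as a covariate, on the 8 Whe clones, 0 genes were called by limma, with 2765 at an unadjusted p under 0.05, and the slopes were 0.33 for C3ar1 (adjusted p = 0.0979), 0.31 for C1qb (adjusted p = 0.102), 0.27 for C1qc (adjusted p = 0.161) and 0.20 for C1qa (adjusted p = 0.342). C1qa was the least stable of the 4, with an adjusted p of 0.0797 without a filter on low values and 0.199 without Whe3-11A and Whe3-12A.

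**Figure D4:**
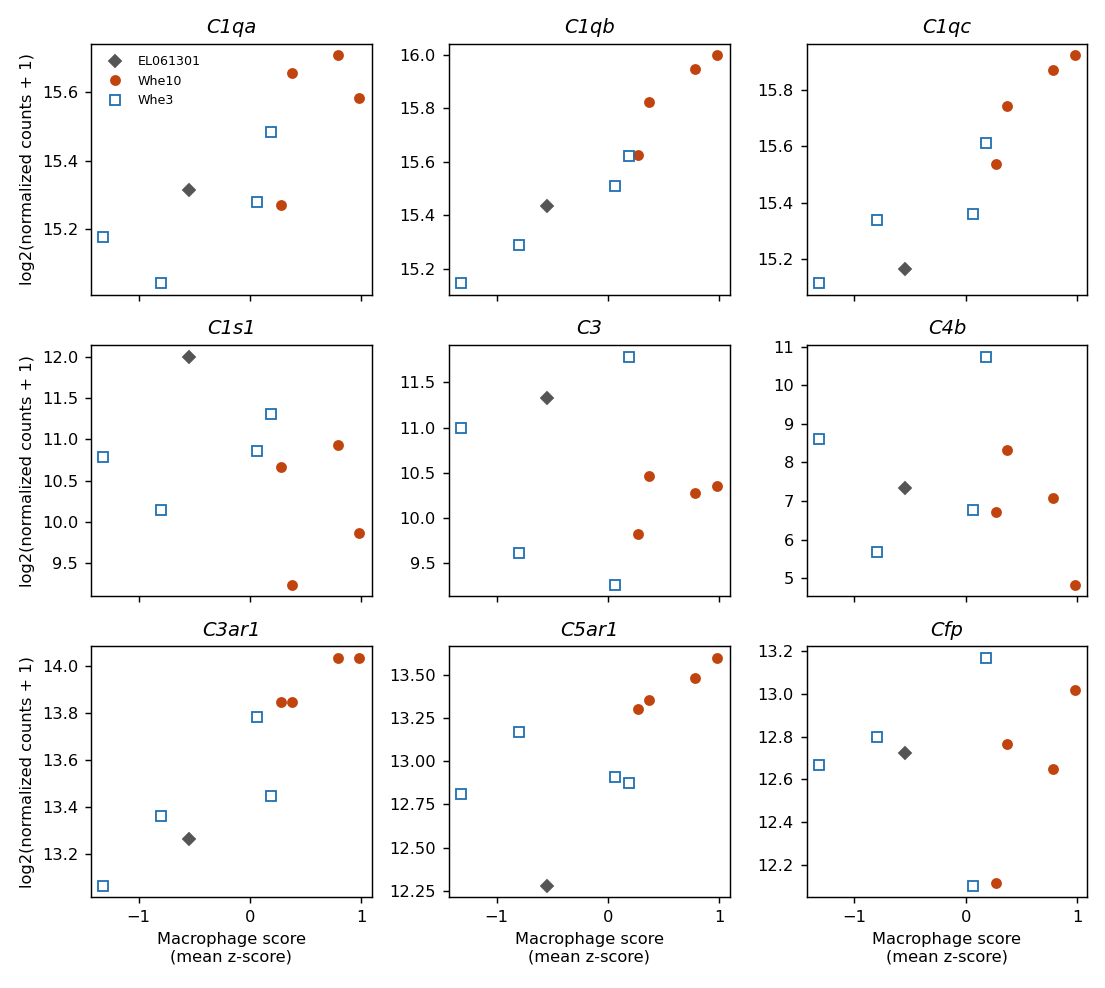
log2(normalized counts + 1) of each of the 9 complement genes against the macrophage score (mean z-score of 16 markers), with 1 point per clone and each panel on its own vertical scale. C1qa, C1qb, C1qc and C3ar1 climb with the score, with the 4 Whe10 clones at its upper end, while C1s1, C3, C4b and Cfp scatter.

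The fibroblast score, made in the same way from the 15 fibroblast markers, ran from −1.09 in Whe10-7A to 0.98 in EL061301-11A. C5ar1, C3ar1 and C1qc fell with it, which is 3 of 9 members, where 9.94% of 12288 genes were called lower and 8.02% higher. The slope was −0.62 for C5ar1 (SE 0.0778, adjusted p = 0.00359, limma), −0.47 for C3ar1 (SE 0.108, adjusted p = 0.0202) and −0.40 for C1qc (SE 0.0962, adjusted p = 0.0237). C1qb, at −0.35 (SE 0.113, adjusted p = 0.0593), and C1s1, at 0.93 (SE 0.295, adjusted p = 0.0554), did not pass. C3 had a slope of 0.62 (SE 0.375, adjusted p = 0.255), C4b of 1.55 (SE 0.744, adjusted p = 0.163), C1qa of −0.18 (SE 0.116, adjusted p = 0.293) and Cfp of −0.06 (SE 0.188, adjusted p = 0.843). The median slope was −0.177 over the members and −0.012 over all genes tested. Of the 20 other complement genes, 2 were called higher, the C1r-related genes C1ra at 0.95 (adjusted p = 0.0171) and C1rl at 0.50 (adjusted p = 0.0302). A further 5 were called lower, namely C2, Cd55, C5ar2, Vsig4 and Cd93. Without EL061301-11A, C5ar1 still passed at −0.49 (adjusted p = 0.015, limma), while C1qc at −0.39 (adjusted p = 0.0828) and C3ar1 at −0.49 (adjusted p = 0.0611) had slopes near those over all clones but did not pass. Without EL061301-11A and Whe10-7A, 0 genes were called by limma, with 2514 at an unadjusted p under 0.05. With the prefix as a covariate, on the 8 Whe clones, 0 genes were called by limma, with 1432 at an unadjusted p under 0.05. The slopes were then −0.32 for C5ar1 (adjusted p = 0.238), −0.28 for C3ar1 (adjusted p = 0.604) and −0.23 for C1qc (adjusted p = 0.652). The part of macrophage or fibroblast content in the levels of the complement genes was not tested.

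**Figure D5:**
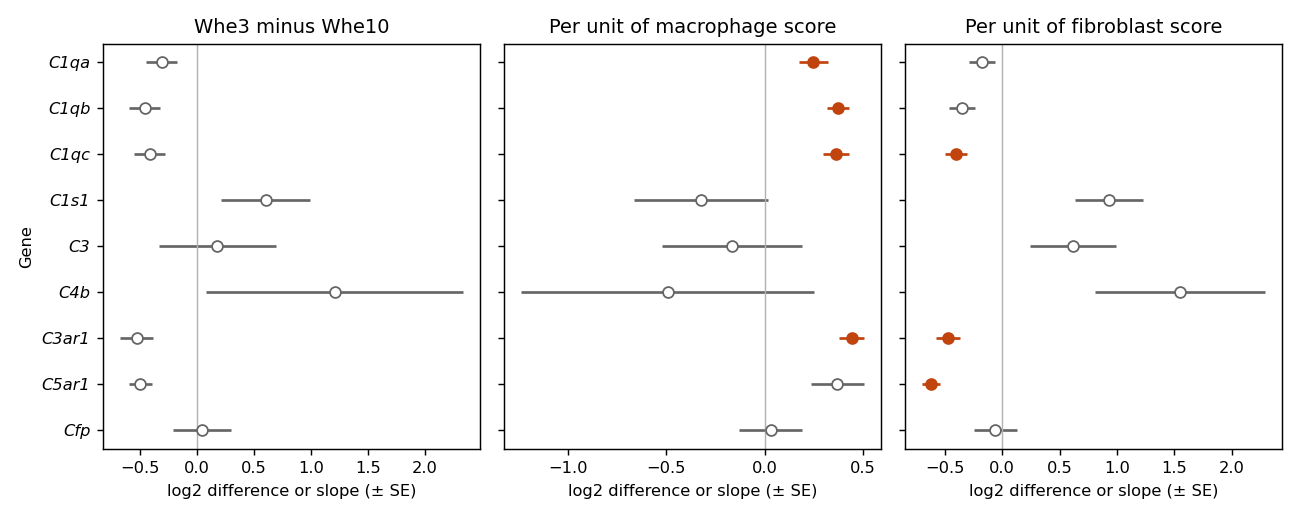
Estimates for the 9 complement genes with their SE (bars), as the log2 difference of Whe3 minus Whe10 (left, n = 4 each) and as log2 slopes per unit of the macrophage score (middle) and fibroblast score (right, n = 9 each). Filled points have an adjusted p under 0.05 in limma: 0 on the left, 4 in the middle and 3 on the right.

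The genes most like each member in pattern were found by Pearson's r of log2 values over the 9 clones, among 12252 genes and outside the complement lists, as a description. For the mean of the C1q genes these were 9030025P20Rik (r = 0.983), Tlr8 (0.981) and Ehd4 (0.981). For C3ar1 they were Prex1 (0.992), Zfp40 (0.990) and Cyp4v3 (0.990), and for C5ar1 Tmem221 (0.991), Rabggta (0.983) and Abi1 (0.981). For C1s1 they were Tshz2 (0.957), Frem1 (0.930) and Wls (0.919). For C3 they were Sh3bgrl2 (0.955), Prss16 (0.944) and the chemokine gene Ccl8 (0.933), and for C4b Htra4 (0.950), Fxyd2 (0.944) and Rnase4 (0.923). For Cfp they were Slc31a1 (0.938), Ifi211 (0.898) and Rbm7 (0.898). Among the members themselves, r with the C1q mean was 0.859 for C3ar1, 0.703 for C5ar1, 0.272 for Cfp, 0.018 for C3, −0.098 for C4b and −0.387 for C1s1. Many genes had a higher r with the C1q mean, since C3ar1 stood at rank 419 and C5ar1 at rank 1795 of 12252. C3 and C4b had r = 0.703 with each other, C3 and Cfp 0.678, and C1s1 and C5ar1 −0.756. By r with C3, C4b stood at rank 289 and Cfp at rank 360. By r with C1s1, C5ar1 stood at rank 12176, near the low end. All points share their library.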

How the data were processed

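RNA was sequenced from 9 MPC clones of WTg mice, all of a single group, with a stranded mRNA kit per the labels. Per the submitters' processing notes the tools were FastQC 0.11.9, STAR 2.7.10 and RSEM 1.3.3 with GRCm38. Their roles and the scaling software are not given in the sources used here. The authors deposited log2 values of scaled read counts plus an offset of 4, for 18049 genes. A further 6 columns, of MEF libraries from other series, were not used.

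The log2 was undone and 4 subtracted to give normalized counts. Each library's values were then whole multiples of a single step, and division by it gave whole reads (within 0.05 reads plus a share for rounding) for 100% of the nonzero values below 1000 reads. Intervals are not given, and the floor of 3 reads covers counting error only.

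Comparisons used limma 3.58.1 (lmFit, eBayes with a trend; R 4.3.3) on log2(normalized counts + 1) for genes averaging 50 normalized counts or more, without the score's own markers, with Benjamini-Hochberg adjustment over all genes tested and a threshold of 0.05. Fold changes on this scale understate the change of low genes. Correlations were tested over all 362880 pairings of 9 clones, in Python 3.11.15 (scipy 1.17.1, numpy 2.4.6, pandas 2.3.3, matplotlib 3.10.9). The scripts were tested on simulated data. No label ties a clone to an animal, so p-values measure the spread between these clones. Column names could not be matched to single samples, only to the group. A gene of the complement lists is not reported here and was left out of their counts. The members, lists and rules were chosen with earlier results of these data known. Named genes were the members, listed complement genes averaging 1000 normalized counts or more or without a read, those called, the lower early and terminal components that were chosen after their values were seen, the 3 genes most like each pattern, and cell type markers. Gene positions and upstream sequences came from RefSeq tables on GRCm38.p6. Alternatives were another scaling (upper quartile, library total), pseudocounts of 0.1 and 4, a minimum mean of 10, no filter, no trend, voom on recovered reads, the prefix as a covariate, and leaving out libraries. Leaving out Whe3-5A from the score fits, correlations and levels, and Whe3-7A from the levels, was chosen after seeing the data.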

Additional observations from a re-analysis of the deposited data

Results flagged for a closer look

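Of 18 genes whose levels were examined for a clone far from the rest, the 9 members and the other complement genes averaging 1000 normalized counts or more, only C4b was flagged. Its highest clone, Whe3-7A, had 1712 normalized counts, against 392 in the next clone, Whe3-12A. That gap is 0.784 of the range over the 9 clones, above Dixon's critical value for 9 values. The rule was applied to normalized counts and not to log2 values, on which a high value stands out less. Chance flags about 1 in 20 genes where values are normally distributed, a rate that skewed counts need not follow. In Whe3-7A, C3 (3530) and Cfp (9201) were also at their highest. Macrophage markers (3.27%) and epithelial markers (0.000764%) also took their highest share of a library there, and the epithelial share rests on few reads. Whether C4b reads were assigned to the right copy of the C4 genes was not tested.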

How the results depend on the processing

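Of the main results, 90 values under alternatives were unchanged, 15 were lost or fell by over 1.5 times and 1 rose. Unchanged meant a count of genes called within 1.5 times, or a C1q correlation keeping its sign and side of the threshold. For the levels of the members, which are among the 90, it meant a mean that moved by less than the SD over clones, a loose rule without a test. Leaving out 1 of 9 clones cannot move a mean by that much, so those entries could not come out otherwise. The mean of C4b fell from 335 to 163 without Whe3-7A and still counted as unchanged. For single genes, judged by sign and side of the threshold, these numbers were 332, 16 and 3. A further 9 changed sign, all of estimates that did not pass. The prefix split called 36 genes, 20 without the mean-variance trend, 22 with voom on recovered reads, and 9 to 265 when a library was left out, with the low end without Whe10-10A or Whe3-7A and the high end without Whe3-5A. The macrophage score called 2697 genes in both directions, 1297 without Whe3-11A and Whe3-12A, and 0 with the prefix as a covariate in limma (2765 at an unadjusted p under 0.05). The fibroblast score called 2208 genes, 831 without EL061301-11A, 0 without EL061301-11A and Whe10-7A (2514 unadjusted) and 0 with the prefix as a covariate (1432 unadjusted). The r of C1qa with C1qc was 0.753 without Whe10-10A and Whe10-11A (adjusted p = 0.05278, exact permutation). The cause of these changes was not tested, beyond the fewer libraries or the added term in each fit.

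In the prefix split, Cfp changed sign without Whe10-8A (−0.13) or Whe3-7A (−0.12), and C3 without Whe3-12A (−0.011) or Whe3-7A (−0.27). Leaving out 1 library, Cfp ranged up to 0.24 and C3 up to 0.57, both without Whe3-5A. With the prefix as a covariate, the macrophage slopes of C1s1 (0.34), C3 (0.040) and C4b (0.055) turned positive, and the fibroblast slope of C1qa became 0.025. The fibroblast slope of Cfp was 0.13 without EL061301-11A and Whe10-7A. C1qa lost its macrophage call with scaling to the upper quartile (adjusted p = 0.0515) and a minimum mean of 10 (0.0558). C5ar1 was called with the macrophage score without Whe3-11A and Whe3-12A (0.69, adjusted p = 0.0193, limma), but its slope fell to 0.058 with the prefix as a covariate (adjusted p = 0.762, limma). C1qb was called with the fibroblast score after scaling to the library total (−0.38, adjusted p = 0.0368, limma). No paired analysis was possible because the samples form 1 group. Depth limits the lowest C4b values, which rest on 19 reads in Whe10-7A.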
